A study of Arabidopsis thaliana with 119 samples.

Results

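The nuclear genes of the light-harvesting antennae and of the photosystem cores of Arabidopsis thaliana were followed through water shortage, nitrogen shortage and both together in 5 natural accessions. The set holds 42 of the 32833 genes in the count table. They were chosen by gene ID for the protein they encode, with earlier results of these data known. They comprise 6 LHCA genes (antenna of photosystem I), 14 LHCB genes (antenna of photosystem II), 12 PSA genes (photosystem I subunits) and 10 PSB genes (photosystem II subunits). All but LHCB1.5 passed the filter on low counts, so 41 were tested among 20025 genes.

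Light is absorbed by chlorophyll held in the LHCA and LHCB proteins and passed to the reaction centres of photosystem I and photosystem II. The antenna proteins and many small subunits are encoded in the nucleus, made in the cytosol and imported into the chloroplast, while the reaction centre proteins are encoded in the plastid genome. In leaves these are among the most abundant transcripts and proteins, and together with the enzymes of carbon fixation they hold a large part of leaf nitrogen.

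Rosettes of the natural inbred accessions Bur-0, Cvi-0, Sha, Tsu-0 and Col-0 were sampled 31 days after sowing, after 23 days on a Phenoscope robot under an 8 h photoperiod. In the drought arm (W-N+) 50.85 ml ± 4.67 (± as the labels give it) of a 5 mM nitrate solution was given, about 254 µmol of nitrate. The nitrogen-deficient arm (W+N-) was given 161.93 ml ± 11.07 at 0.5 mM, about 81.0 µmol. The combined arm (W-N-) was given 50.70 ml ± 4.10 at 1.5 mM, about 76.1 µmol. The control arm (W+N+) was given 160.45 ml ± 7.96 at 5 mM, about 802 µmol. Drought plants thus also received less nitrate than control plants. The libraries form 20 groups of 6, except 5 for Bur-0 W+N+ (30 libraries per stress and 29 controls), and carry the codes P3ID33 or P3ID34 in their titles, whose meaning is not given in the sources used here. Nor is it given whether a library came from 1 rosette or from several, so the spread behind each p-value is that between libraries and may be technical.

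A library held 9698708 to 110420763 counts (median 17998283). The 42 genes took 9.79% to 23.2% of the counts of a library, with a median of 14.6%. Every pair of libraries within a group differed by more than counting error (mean chi-square per gene at least 3.07). Expression over all genes lay far from the rest of the group in 5 libraries, which were replicate d of Tsu-0 and b of Sha in W+N-, c of Bur-0 in W-N-, and c of Cvi-0 and f of Col-0 in W+N+. Counts without these 5 are given below where they differ by more than 1.5 times. Counts of called members from this or any other alternative fit stand without the share of all genes called in it. The leaf mesophyll markers RBCS1A, RCA, BCA1, GAPA and PGK1 summed to between 17573 and 91476 CPM (counts scaled to library size by TMM) in each library. Flower markers summed to at most 11.6 CPM, in Cvi-0 W+N- f, and root markers to at most 54.6 CPM.

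The LHCB1 copies are shown first because their near identity limits what a count of each copy means. Below are 60 bases of each coding sequence, from RefSeq on TAIR10.1, in the coding direction. They are the aligned stretch without gaps that has the most columns that differ, so it is more varied than the coding sequence as a whole. Capitals mark bases unlike the most common base of that column.
LHCB1.1: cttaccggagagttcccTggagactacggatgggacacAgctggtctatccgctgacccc
LHCB1.2: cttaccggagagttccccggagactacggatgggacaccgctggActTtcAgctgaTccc
LHCB1.3: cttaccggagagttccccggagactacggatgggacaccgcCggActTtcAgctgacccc
LHCB1.4: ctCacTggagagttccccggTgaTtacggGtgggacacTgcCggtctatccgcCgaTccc
LHCB1.5: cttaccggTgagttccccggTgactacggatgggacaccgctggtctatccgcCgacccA
Of the 60 columns, 15 differ among the copies, and LHCB1.4 carries 9 of the capitals against 2 to 4 in the others. Over the whole coding sequence the copies were 87.0% to 96.4% identical. Windows of 50 bases shared with another gene occurred in 8 of the 42 genes, which were the LHCB1 copies, LHCB2.1, LHCB2.2 and LHCA2. Counts of single LHCB1 copies, LHCB2.1 and LHCB2.2 are therefore uncertain, while LHCB2.3 shared 0 of its 1416 windows. Values with the copies summed stand beside those of LHCB1.4, LHCB2.1 and LHCB2.3. In W+N+ libraries LHCB2.3 averaged 1547 CPM, against 3283 for LHCB2.1 and 4604 for LHCB2.2. The LHCB2 sum thus mostly follows the other copies and is no check on LHCB2.3 itself. LHCB1.5 (AT2G34420) had 0 counts in every library, where 3 counts would be 0.0272 to 0.309 CPM, and has no fold change. Of its 996 windows, 82.7% occur in no other gene and 172 are shared with LHCB1.4; whether its 0 comes from the counting or from expression was not tested.

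Upstream sequence is shown for 2 pairs of genes whose members did not move together under nitrogen deficiency, PSBQ1 with PSBQ2 and LHCB4.1 with LHCB4.3. The 180 bases before the annotated start, from RefSeq on TAIR10.1 and in the direction of the gene, lie at chr4:11334172-11334351 on the plus strand for PSBQ1, chr4:2673244-2673423 on the minus strand for PSBQ2, chr5:208686-208865 on the plus strand for LHCB4.1 and chr2:16745448-16745627 on the plus strand for LHCB4.3. Capitals mark CACGTG (the G-box), GATAAG (the I-box) and CCAATC (the core of a CCAAT box), searched on both strands.
PSBQ1: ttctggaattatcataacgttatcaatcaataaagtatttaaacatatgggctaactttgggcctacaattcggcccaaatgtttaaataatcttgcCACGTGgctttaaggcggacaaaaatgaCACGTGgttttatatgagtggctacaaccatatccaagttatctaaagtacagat
PSBQ2: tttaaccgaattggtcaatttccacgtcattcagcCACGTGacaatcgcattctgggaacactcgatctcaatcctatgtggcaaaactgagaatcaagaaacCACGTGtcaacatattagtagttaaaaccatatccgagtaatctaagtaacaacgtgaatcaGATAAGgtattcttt
LHCB4.1: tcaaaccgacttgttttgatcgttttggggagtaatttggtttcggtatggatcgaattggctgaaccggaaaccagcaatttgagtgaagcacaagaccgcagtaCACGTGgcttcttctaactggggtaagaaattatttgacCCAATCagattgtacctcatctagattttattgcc
LHCB4.3: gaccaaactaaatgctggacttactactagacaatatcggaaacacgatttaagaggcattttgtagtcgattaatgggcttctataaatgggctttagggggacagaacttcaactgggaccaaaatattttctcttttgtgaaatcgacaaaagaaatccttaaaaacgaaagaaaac
The PSBQ1 stretch holds the G-box 2 times and so does that of PSBQ2, which has an I-box as well. The LHCB4.1 stretch has 1 G-box and 1 CCAATC, and that of LHCB4.3 has no match to the 3 motifs. In windows of 250 bases, the G-box was found in 8 of the 42 genes and in 6.49% of 27443 nuclear protein-coding genes, the I-box in 9 of 42 and 12.3%, and CCAATC in 11 of 42 and 10.2%. None of the 3 motifs contains another. CCAATC lay before 3 of the 6 LHCA genes and 7 of the 14 LHCB genes, but before 0 of the 12 PSA and 1 of the 10 PSB genes.

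Levels per length differed widely among the genes under control conditions. LHCB1.3 was the highest, at 19129 CPM per kilobase of transcript in W+N+, followed by LHCB1.2 at 7542 and LHCB1.1 at 6696 CPM per kilobase. LHCB3, a minor partner in the trimeric antenna, stood at 6609 and LHCA1, of the photosystem I antenna belt, at 6148 CPM per kilobase. The lowest were LHCA5 at 214, LHCB4.3 at 177 and LHCA6 at 159 CPM per kilobase; LHCA5 and LHCA6 help link photosystem I to the NADH dehydrogenase-like complex.

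Drought alone left most of these genes near their control level. All members together summed to 9.89% to 20.8% of scaled counts in W-N+ libraries, with a median of 16.3%, against 10.9% to 34.05% with a median of 16.1% in W+N+ libraries. The ranges overlap, and the highest W+N+ value is that of Col-0 f. Percentages of scaled counts depend on the TMM factor of a library and are not plain shares of its counts. As plain shares, members took 11.7% to 23.2% of counts in W+N+ libraries (median 15.6%). In W-N+ libraries they took 11.1% to 18.3% (median 15.4%). By edgeR's quasi-likelihood test with Benjamini-Hochberg adjustment over all genes, averaged over accessions, 3 of 41 were called, where 23.7% of all genes tested were called in either direction. The median log2 fold change was -0.02, against 0.00 over all genes.

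The 3 calls were small, and 1 was left without the title code as a term and 1 with the LHCB1 and LHCB2 copies summed. LHCB1.4 (AT2G34430) fell by 0.27 ± 0.09 on the log2 scale (adjusted p = 0.019), LHCA5 (AT1G45474) fell by 0.11 ± 0.04 (adjusted p = 0.028), and PSBQ2 (AT4G05180), an extrinsic subunit of the oxygen-evolving complex, rose by 0.10 ± 0.04 (adjusted p = 0.043). LHCB1.4 ranged from 797 through a median of 2090 to 4072 CPM in W-N+ libraries, against 1095, 2531 and 7908 CPM in W+N+ libraries, so the groups overlap; with the LHCB1 copies summed the change was -0.14 (adjusted p = 0.19). Of the mesophyll markers, 1 of 5 fell and 0 rose under drought (median -0.08). No other member passed, and standard errors of the averaged changes lay between 0.03 and 0.12. Leaving out the libraries of replicate d, e or f left 1, 0 and 0 calls, and within code P3ID33 2 and within P3ID34 1 was called (medians 0.04 and -0.05).

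Within single accessions, drought gave no call among the members by edgeR, where 3.27% of all genes were called in Bur-0, 1.62% in Cvi-0, 1.72% in Sha, 5.85% in Tsu-0 and 6.17% in Col-0. DESeq2 and limma gave 0 in each as well, and at an unadjusted p below 0.05 edgeR had 0, 0, 1, 6 and 6 members, in the same order. By median, members were at 0.09 in Tsu-0 and at -0.18 in Col-0. The test of equal drought effects across accessions called 0 members by edgeR, DESeq2 and limma and 0 at an unadjusted p below 0.05, and 0.619% of all genes by edgeR.

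Nitrogen deficiency lowered nearly the whole set. Of 41 members, 39 fell and 0 rose in W+N- relative to W+N+, where 31.4% of all genes were called lower. The median log2 fold change was -0.42 for members and 0.05 for all genes. Summed over the members, W+N- libraries held 8.34% to 20.1% of scaled counts with a median of 11.03%, against 10.9% to 34.05% with a median of 16.1% in W+N+ libraries. The medians differ while the ranges still overlap across accessions. In bulk rosette RNA, fewer mesophyll cells and less RNA per cell cannot be told apart, and all 5 mesophyll markers fell too (BCA1, a carbonic anhydrase, by 1.02 ± 0.05, and RCA, Rubisco activase, by 0.54 ± 0.04). The part of that in the fall of the antenna genes was not tested.

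Counted gene by gene, the photosystem II antenna had the largest median fall of the 4 groups. Of its 13 measured genes, 12 fell (median -0.54), against all 6 photosystem I antenna genes (median -0.31), all 12 photosystem I subunits (median -0.39) and 9 of 10 photosystem II subunits (median -0.44). The 13 include 4 LHCB1 and 3 LHCB2 copies, each counted singly. Summed, LHCB1 fell by 0.64 and LHCB2 by 0.30. Group medians with the copies summed are not given here, so the ranking holds for single genes only. As a share of the members' own counts, the photosystem II antenna averaged 45.5% ± 2.27 in W+N- libraries and 49.0% ± 2.14 in W+N+ libraries (SD, n = 30 and 29), and the other 3 groups each took slightly more in W+N-. These shares were not tested.

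**Figure D1:**
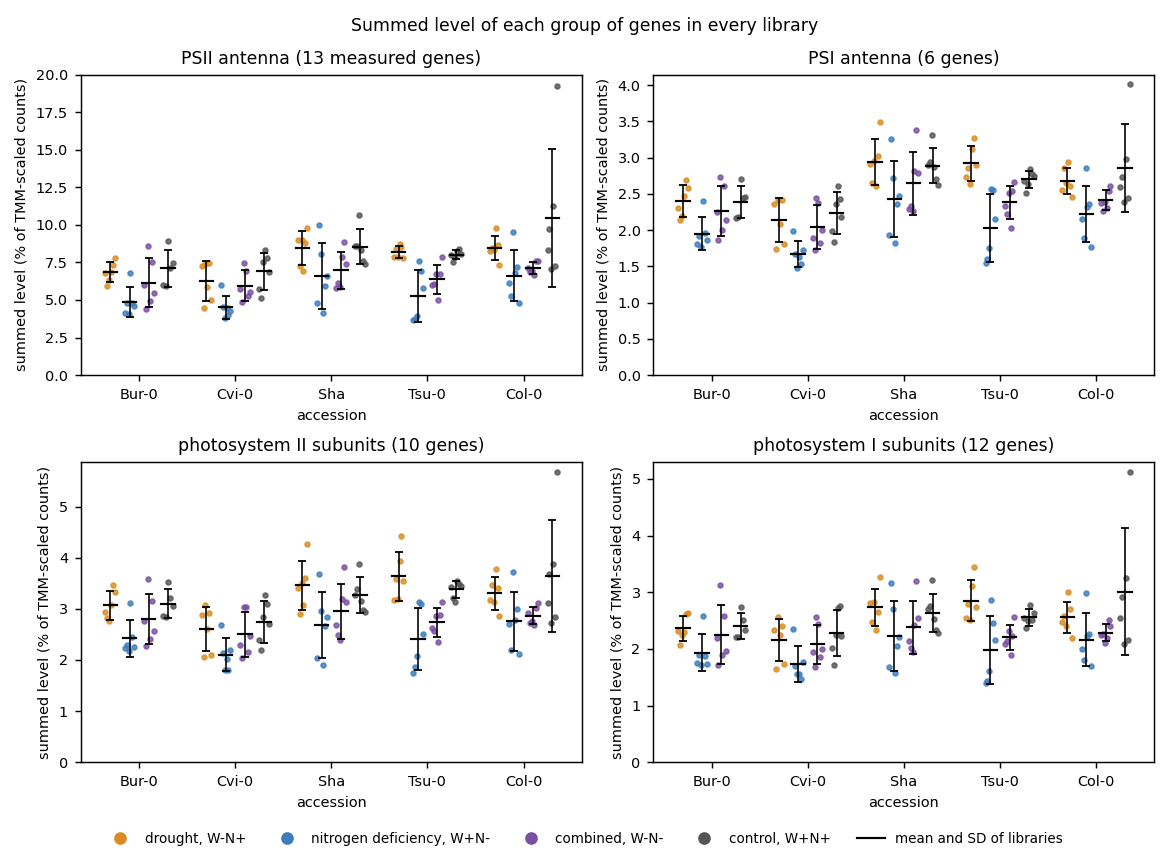
Summed level of the genes of each group in every library, as % of TMM-scaled counts, by accession and treatment; bars give the mean and SD of the 5 or 6 libraries of a group. The W+N- libraries have the lowest mean in all 5 accessions and all 4 panels, and the library Col-0 W+N+ f stands alone at 19.2% in the photosystem II antenna. Such scaled percentages are not plain shares of a library's counts.

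Among the major trimer proteins of the photosystem II antenna, all 4 measured LHCB1 copies and all 3 LHCB2 copies fell. LHCB1.4 ranged from 480 through a median of 1279 to 4301 CPM in W+N- libraries, against 1095, 2531 and 7908 CPM in W+N+ libraries, a fall of 0.89 ± 0.09 (log2, adjusted p = 5e-16). The libraries overlap in 4 of the 5 accessions. LHCB1.1 fell by 0.71 ± 0.08, LHCB1.3 by 0.64 ± 0.09 and LHCB1.2 by 0.56 ± 0.07, and the copies summed to a single feature fell by 0.64. Among LHCB2 copies, LHCB2.3 (AT3G27690) fell by 0.69 ± 0.05, while LHCB2.2 (AT2G05070) fell by 0.27 ± 0.06 and LHCB2.1 (AT2G05100) by 0.22 ± 0.05; summed, they fell by 0.30. LHCB3, the other trimer protein, fell by 0.47 ± 0.05.

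The minor, monomeric antenna proteins link the trimers to the core. LHCB4.1 (AT5G01530) ranged from 2226 through 3154 to 4952 CPM in W+N- libraries, against 3177, 5212 and 8835 CPM in W+N+ libraries. Its libraries did not overlap in 4 of 5 accessions, and it fell by 0.63 ± 0.05 (adjusted p = 2.7e-23). LHCB6 fell by 0.54 ± 0.09, LHCB5 by 0.47 ± 0.06 and LHCB4.2 by 0.40 ± 0.04. LHCB4.3 (AT2G40100), a form also named LHCB8, did not pass: it lay at 173, 238 and 285 CPM in W+N- libraries, against 188, 233 and 272 CPM in W+N+ libraries (-0.02 ± 0.04, adjusted p = 0.69).

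In the photosystem I antenna, LHCA6 (AT1G19150) fell by 0.59 ± 0.04 and LHCA4 by 0.45 ± 0.03. LHCA4 (AT3G47470), which pairs with LHCA1 and carries far-red chlorophylls, lay at 3857, 5169 and 6839 CPM in W+N- libraries, against 5636, 7523 and 8567 CPM in W+N+ libraries. Within each of the 5 accessions every W+N- library was below every W+N+ library. LHCA1, LHCA2 and LHCA3 fell by 0.32 ± 0.06, 0.30 ± 0.07 and 0.28 ± 0.04, and LHCA5 by 0.25 ± 0.04.

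Subunits of photosystem I fell by 0.19 to 0.61. PSAG (AT1G55670), which binds at the antenna side of the core, fell by 0.61 ± 0.12. It ranged over 131, 219 and 608 CPM in W+N- libraries, against 207, 329 and 667 CPM in W+N+ libraries, with overlap in every accession. PSAD2, part of the ferredoxin docking site, fell by 0.52 ± 0.08, and PSAN, near the plastocyanin docking site, and PSAH2, needed for docking of mobile antenna, both by 0.48 (SE 0.07 and 0.04). The smallest fall was that of PSAL, at 0.19 ± 0.05. PSAG, PSAE1, PSAH1 and LHCB2.3 each overlap a gene on the opposite strand by over 400 bases of annotated gene span, introns included. The strand setting of the counting is not given in the sources used here.

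Among photosystem II subunits, the extrinsic proteins of the oxygen-evolving complex held the largest changes. PSBQ1 (AT4G21280) lay at 722, 1037 and 1620 CPM in W+N- libraries, against 1462, 1931 and 3092 CPM in W+N+ libraries. It fell by 0.83 ± 0.05 (adjusted p = 3.3e-28), with no overlap in any of the 5 accessions. PSBO2 (AT3G50820), 1 of the 2 manganese-stabilising proteins, lay at 425, 1017 and 1665 CPM in W+N- libraries, against 1234, 1941 and 2314 CPM in W+N+ libraries. It fell by 0.80 ± 0.05 (adjusted p = 2.3e-29), again with no overlap in any of the 5 accessions.

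PSBP1, PSBO1 and PSBQ2 fell by 0.47 ± 0.06, 0.45 ± 0.07 and 0.19 ± 0.04. PSBS (AT1G44575), the sensor of lumen acidity in non-photochemical quenching, fell by 0.48 ± 0.05. The small subunits PSBW, PSBY and PSBX fell by 0.42 ± 0.06, 0.33 ± 0.05 and 0.25 ± 0.08. PSBR (AT1G79040), a further subunit near the oxygen-evolving complex, stayed uncalled at 2754, 3731 and 6298 CPM in W+N- libraries, against 2642, 3713 and 8765 CPM in W+N+ libraries (0.03 ± 0.07, adjusted p = 0.74).

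Within code P3ID33 38 members and within P3ID34 36 were called lower (medians -0.40 and -0.45). Longer transcripts were read less in some libraries than in others. The slope of a library's log2 CPM deviations on log2 transcript length averaged 0.00464 in W+N- and -0.034 in W+N+ libraries. It was -0.51 to -0.27 in the 5 far libraries and -0.302 to 0.203 in the other 114, and the members are short, with a median of 1192.5 bases against 1692 for other genes. With that slope as a covariate the median log2 fold change was -0.38, with 39 lower and PSBR (0.08) higher.

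**Figure D2:**
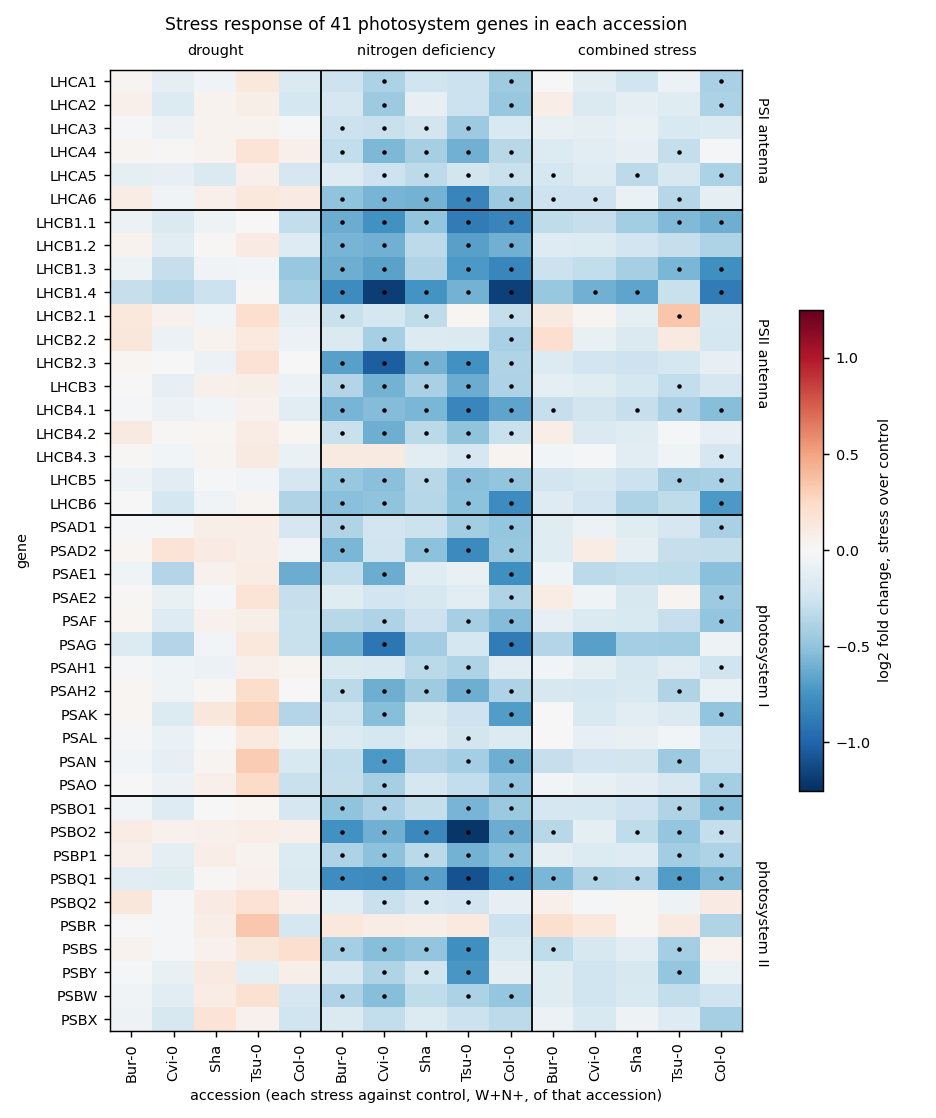
Log2 fold change of each stress over W+N+ (colour scale) for the 41 tested genes (rows, by group) in each accession (columns); dots mark adjusted p below 0.05 by edgeR. Blue fills the nitrogen deficiency block, with 21 to 32 dots per accession, while the drought block has none.

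Members fell in nitrogen-deficient rosettes of every accession. In Bur-0, 23 of 41 were lower (19.7% of all genes), in Cvi-0 32 (20.8%), in Sha 21 (17.7%), in Tsu-0 30 (22.9%) and in Col-0 32 (22.3%), and 0 rose in any of them. Median log2 fold changes were -0.33 in Bur-0, -0.51 in Cvi-0, -0.33 in Sha, -0.45 in Tsu-0 and -0.46 in Col-0. The Col-0 count was 12 without replicate f and the Cvi-0 count 21 without replicate e; the Sha count was 13 without replicate d and 33 without the 5 far libraries. Flower markers summed to 2.56 to 11.6 CPM in Cvi-0 W+N- libraries, against 0.79 to 2.32 CPM in Cvi-0 W+N+ libraries; without the highest, replicate f, 31 members were called lower in Cvi-0.

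The size of the fall differed between accessions for 4 of 41 members, by a test of equal effects. This is a smaller share than the 16.1% of all genes called by it. PSBY fell by 0.73 ± 0.10 in Tsu-0 and was at -0.11 ± 0.10 in Col-0 (adjusted p = 0.0072 for the difference among the 5 accessions). PSBO2 fell by 1.22 ± 0.11 in Tsu-0, 0.81 ± 0.11 in Sha, 0.75 ± 0.11 in Bur-0, 0.60 ± 0.11 in Cvi-0 and 0.62 ± 0.11 in Col-0 (adjusted p = 0.0074). LHCB2.3 fell by 1.03 ± 0.11 in Cvi-0 and 0.37 ± 0.11 in Col-0 (adjusted p = 0.014), a difference not called with the LHCB2 copies summed (adjusted p = 0.36; -0.50 in Cvi-0 and -0.32 in Col-0). PSBS fell by 0.77 ± 0.10 in Tsu-0 and was at -0.19 ± 0.10 in Col-0 (adjusted p = 0.027).

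In Tsu-0, PSBO2 lay at 425, 830 and 1355 CPM in W+N- libraries, against 1866, 1984 and 2166 CPM in W+N+ libraries, without overlap. PSBY lay there at 723, 1148 and 1773 CPM in W+N- libraries, against 1738, 2032 and 2284 CPM in W+N+ libraries, which overlap slightly. The 4 calls were lost without the title code as a term (0 left), and 2, 2 and 1 were left without replicate a, c or d. Within code P3ID33 1 and within P3ID34 4 members were called, and 19 with the length slope as a covariate. The shares of all genes called in these fits are not given here.

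Under combined stress the set fell less than under nitrogen deficiency alone. The amount of nitrate given was nearly equal, while its concentration was 1.5 mM against 0.5 mM. Of 41 members 33 were lower and 0 higher in W-N- than in W+N+, where 26.6% of all genes were lower. The median log2 fold change was -0.21, against 0.03 over all genes. All 6 photosystem I antenna genes, 10 of 13 photosystem II antenna genes, 9 of 12 photosystem I subunits and 8 of 10 photosystem II subunits fell, with medians of -0.16, -0.25, -0.20 and -0.23. Within code P3ID33 16 and within P3ID34 27 were called (medians -0.18 and -0.25), with the length slope as a covariate 29 (median -0.13), and all 5 mesophyll markers fell as well (GAPA, a Calvin cycle dehydrogenase, by 0.47 ± 0.04).

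LHCB1.4 fell most, by 0.58 ± 0.09, at 716, 1671 and 3440 CPM in W-N- libraries against 1095, 2531 and 7908 CPM in W+N+ libraries. PSBQ1 fell by 0.51 ± 0.05 (adjusted p = 2e-15), at 1045, 1361 and 2141 CPM in W-N- libraries against 1462, 1931 and 3092 CPM in W+N+ libraries. Its libraries did not overlap in 3 of 5 accessions, and those of LHCB1.4 in 1. Summed, the LHCB1 copies fell by 0.41, and the LHCB2 copies were at -0.02 and not called (adjusted p = 0.69). LHCB4.1 fell by 0.35 ± 0.05 and PSBO2 by 0.31 ± 0.05. LHCB2.1 (0.04 ± 0.05), LHCB2.2 (-0.03 ± 0.06), LHCB4.2 (-0.07 ± 0.04), PSBQ2 (0.02 ± 0.04) and PSBR (0.02 ± 0.07) did not pass.

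Within accessions, combined stress lowered 6 members in Bur-0 (14.6% of all genes lower), 3 in Cvi-0 (10.2%), 5 in Sha (9.03%) and 20 in Col-0 (16.9%). In Tsu-0 15 fell and 1 rose, where 37.5% of all genes were called in either direction. Among Bur-0, Cvi-0, Sha and Col-0, only in Col-0 was the share of members lower clearly larger than that of all genes. In Bur-0, Cvi-0 and Sha the members' share was near or below it, so those counts do not set the members apart from other genes. In Tsu-0 the share of members called in either direction was near that of all genes. The share of all genes lower in Tsu-0 is not given here, so the 15 falls cannot be set against it. PSBQ1 was the only member called in all 5 and fell by 0.36 ± 0.12 (Sha) to 0.70 ± 0.12 (Tsu-0). Single libraries weigh on these counts: the Col-0 count was 11 without replicate a and 5 without replicate f, the Cvi-0 count 1 without c, e or f, and the Sha count 1 without a, 2 without b, c or d and 9 without e. Without the 5 far libraries the counts were 9 in Col-0, 10 in Bur-0 and 8 in Sha. Without the title code as a term the counts were 0 in Cvi-0 and 2 in Sha. Within code P3ID34 1 was called in Col-0, 1 in Bur-0 and 11 in Sha, and within P3ID33 0 in Cvi-0, 0 in Sha and 6 in Tsu-0. With the length slope as a covariate the counts were 13 in Col-0, 16 in Bur-0 and 7 in Cvi-0.

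The member that rose, LHCB2.1 in Tsu-0, lay at 2519, 3487 and 4103 CPM in W-N- libraries, against 2438, 2715 and 2853 CPM in W+N+ libraries (0.35 ± 0.10, adjusted p = 0.0046), with overlap. It was the only member whose response to combined stress differed between accessions (adjusted p = 0.032), where 13.5% of all genes did. That call was lost without replicate a, b, c, d or f, and with the LHCB2 copies summed the Tsu-0 change was 0.18 and not called, nor was the difference between accessions (adjusted p = 0.14).

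Set directly against nitrogen deficiency, combined stress held more of these transcripts. In W-N- relative to W+N-, 24 of 41 members were higher and 0 lower, where 19.6% of all genes were higher, with a median of 0.19. LHCB2.3 and PSBO2 were higher by 0.49 ± 0.05 each and LHCA6 by 0.38 ± 0.04. Of the groups, 10 of 13 photosystem II antenna genes, 4 of 6 photosystem I antenna genes, 4 of 12 photosystem I subunits and 6 of 10 photosystem II subunits were higher. PSBO2 lay at 1137, 1490 and 2431 CPM in W-N- libraries and at 425, 1017 and 1665 CPM in W+N- libraries, which overlap across accessions. Summed, the LHCB1 copies were higher by 0.23 and the LHCB2 copies by 0.28. Of the 5 mesophyll markers 4 were higher and 0 lower (median 0.18), and their part in these differences was not tested.

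Set against drought at the same water supply, combined stress lowered 29 of 41 members and raised 0, where 20.9% of all genes were lower (median -0.21). PSBQ1 was at -0.43 ± 0.05, PSBO2 at -0.38 ± 0.05 and LHCB4.1 at -0.31 ± 0.05. Of the photosystem II antenna 11 of 13 were lower, of photosystem I subunits 6 of 12. The LHCB1 copies summed were at -0.27, and the LHCB2 copies at -0.05 and not called. All 5 mesophyll markers were lower too (median -0.39), and their part was not tested. Within code P3ID33 19 and within P3ID34 22 members were called.

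The combined effect was smaller than the sum of the single effects for 21 of 41 members and larger for 0, that is, their departure from additivity was positive; 15.3% of all genes departed upwards. The median departure was 0.21 on the log2 scale. LHCB1.4 departed by 0.58 ± 0.13, LHCB2.3 by 0.46 ± 0.07, PSBO2 by 0.42 ± 0.07 and PSBQ1 by 0.39 ± 0.07. Of the photosystem II antenna 11 of 13 did so, of photosystem I subunits 2 of 12. With copies summed the departures were 0.37 for LHCB1 and 0.25 for LHCB2. All 5 mesophyll markers departed upwards as well (median 0.31), and their part was not tested. The treatments were not crossed in nitrate supply, since drought plants also received less nitrate, so water and nitrate shares of this departure cannot be told apart. Within code P3ID33 8 and within P3ID34 13 members were called, and 36 with the length slope as a covariate, where combined stress against nitrogen deficiency gave 37. These comparisons share libraries. With the length slope as a covariate the median departure was 0.21 as well. The shares of all genes called in these alternative fits are not given here.

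Copies of the same subunit did not always respond alike. The pairs were 9, of which 7 were copies of the same subunit and 2 were related antenna proteins (LHCA5 with LHCA1 and LHCA6 with LHCA2, 52.4% and 60.1% identical over their coding sequences). The log2 ratio of the counts of both genes was compared between stress and W+N+ libraries by a two-sided permutation test within accession and code, and 18 of 27 ratios changed after adjustment over the 27 tests. The ratio of PSBQ1 to PSBQ2, extrinsic proteins of the same kind, ranged over -1.43, -0.88 and -0.34 in W+N- libraries, against -0.79, -0.32 and 0.41 in W+N+ libraries. The mean change was -0.64 ± 0.05, lower in all 5 accessions (permutation p = 1e-05, the smallest these relabellings can give, adjusted p = 3.86e-05). It was -0.53 ± 0.04 under combined stress and -0.17 ± 0.04 under drought, with the same sign in 5 of 5 accessions each time and the same permutation p. Their promoters, printed above, both hold the G-box 2 times.

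The ratio of LHCB4.3 to LHCB4.1 moved the other way. It ranged over -4.55, -3.89 and -3.22 in W+N- libraries, against -5.12, -4.46 and -3.94 in W+N+ libraries. The change was 0.62 ± 0.04 under nitrogen deficiency and 0.25 ± 0.03 under combined stress, higher in 5 of 5 accessions (permutation test, adjusted p = 3.86e-05 for both), and 0.04 ± 0.03 under drought (adjusted p = 0.131). LHCB4.1 relative to LHCB4.2 changed by -0.23 ± 0.03, -0.27 ± 0.02 and -0.09 ± 0.02 under nitrogen deficiency, combined stress and drought.

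PSBO1 rose relative to PSBO2 under nitrogen deficiency, by 0.35 ± 0.09 in 5 of 5 accessions (permutation test, adjusted p = 6.75e-05). The ratio ranged over 1.66, 2.16 and 4.03 in W+N- libraries, against 1.405, 1.86 and 2.85 in W+N+ libraries. Under combined stress the change was 0.00586 ± 0.06 (permutation p = 0.916) and under drought -0.13 ± 0.06 (adjusted p = 0.0174), a call lost within either code alone and without replicate f. In photosystem I, PSAH1 rose relative to PSAH2 by 0.24 ± 0.05, PSAE1 fell relative to PSAE2 by 0.20 ± 0.06 and PSAD1 rose relative to PSAD2 by 0.15 ± 0.06 under nitrogen deficiency. LHCA6 fell relative to LHCA2, which shares some windows with another gene, by 0.28 ± 0.08. LHCA5 relative to LHCA1 was at 0.08 ± 0.04 and not called. Within code P3ID33 14 and within P3ID34 10 of the 27 ratios were called.

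**Figure D3:**
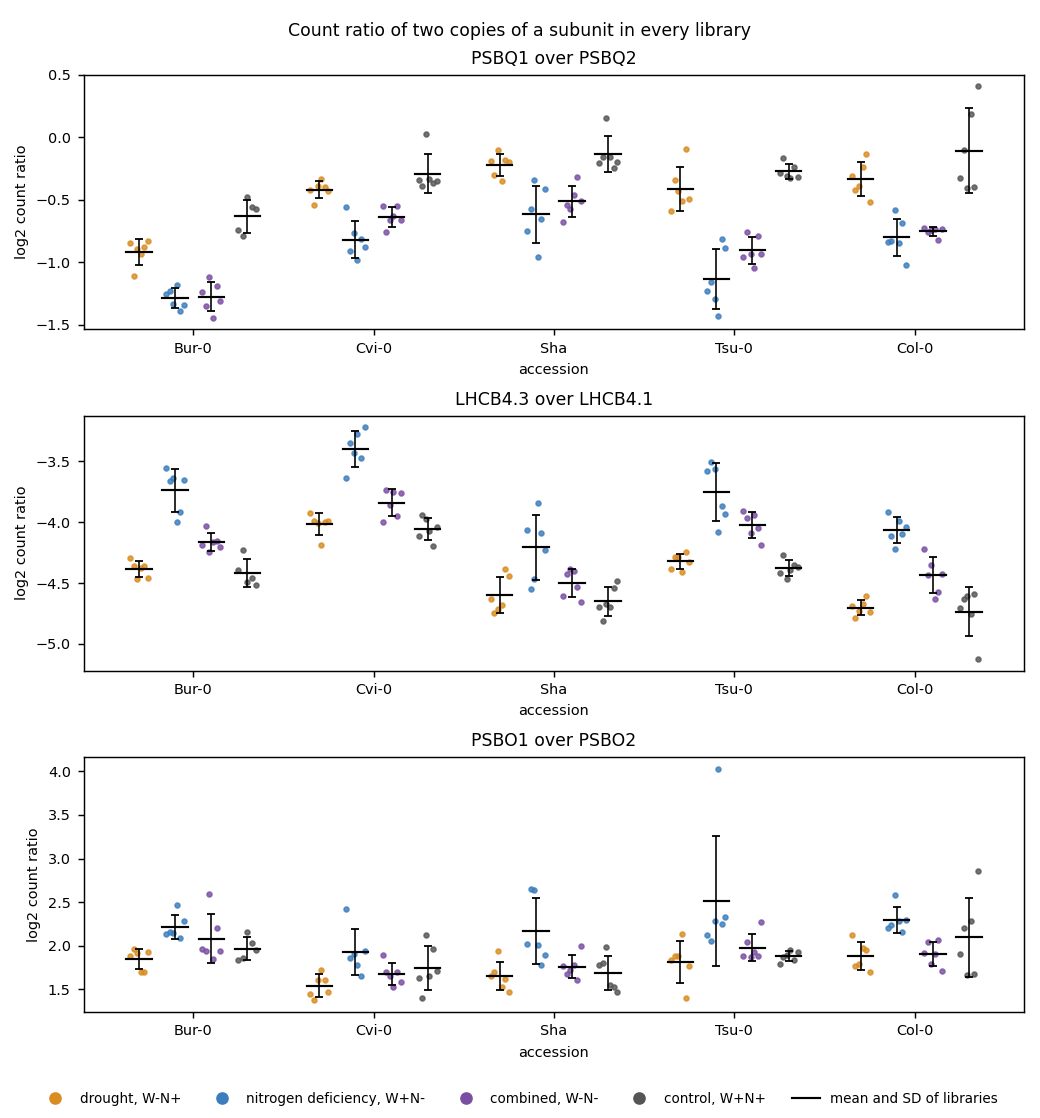
Log2 ratio of the counts of 2 copies of a subunit in every library, by accession and treatment, with the mean and SD of each group. In all 5 accessions the W+N- mean of PSBQ1 over PSBQ2 lies below the W+N+ mean, and that of LHCB4.3 over LHCB4.1 above it.

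Levels in well-supplied plants differed between accessions for 30 of 41 members, a share near the 75.6% of all genes. Against Col-0, 20 members were lower and 1 higher in Bur-0 (36.8% of all genes called in either direction), and 24 lower and 0 higher in Cvi-0 (42.9%). In Sha 6 were lower and 2 higher (35.0%) and in Tsu-0 9 lower and 1 higher (33.7%), smaller shares than of all genes. Over all 20025 genes, 4098 were lower in Bur-0, 4428 in Cvi-0, 3964 in Sha and 3864 in Tsu-0. Without replicate f, which leaves out the library Col-0 W+N+ f, the counts were 6 in Bur-0, 11 in Cvi-0 and 6 in Tsu-0, and without replicate d the Sha count was 5. Without the 5 far libraries it was 10 in Bur-0 and 15 in Cvi-0. The table has 1 row per gene for every accession, and how well reads of each accession matched these copies was not tested.

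LHCB2.1 differed from Col-0 in all 4 other accessions. It lay at 1556, 1990 and 2462 CPM in Bur-0, 1577, 1682 and 1934 CPM in Cvi-0, 3831, 4218 and 4423 CPM in Sha and 2438, 2715 and 2853 CPM in Tsu-0, against 4502, 5297 and 8930 CPM in Col-0, all W+N+. Each of the 4 accessions lay wholly below Col-0, while Bur-0 and Cvi-0 overlap each other. On the log2 scale the differences from Col-0 were -1.63 ± 0.11 in Bur-0, -1.77 ± 0.11 in Cvi-0, -0.48 ± 0.10 in Sha and -1.13 ± 0.11 in Tsu-0. With the LHCB2 copies summed, the differences were -0.84, -0.52, -0.17 and -0.58 in the same order, the Sha value no longer called.

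LHCB2.3 followed another order. It lay at 449, 524 and 584 CPM in Tsu-0 and 554, 927 and 1141 CPM in Bur-0, against 1700, 1855 and 2431 CPM in Col-0, differences of -1.92 ± 0.11 and -1.24 ± 0.12. Cvi-0, at 1611, 1842 and 2638 CPM, overlapped Col-0. With the LHCB2 copies summed the Tsu-0 and Bur-0 differences were -0.58 and -0.84. LHCB4.2 was lowest in Cvi-0, at 848, 1037 and 1123 CPM against 2612, 2885 and 3822 CPM in Col-0, a difference of -1.57 ± 0.10 without overlap. The difference was -0.64 ± 0.10 in Tsu-0, -0.33 ± 0.10 in Sha and -0.31 ± 0.10 in Bur-0.

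LHCB1.4 differed from Col-0 by -1.43 ± 0.20 in Cvi-0, -0.91 ± 0.20 in Sha and -0.90 ± 0.21 in Bur-0. The LHCB1 copies summed were at -0.54, -0.33 (not called) and -0.60 in the same order. LHCA5 was lower in all 4 accessions, at -0.32 ± 0.08 (Sha) to -0.53 ± 0.09 (Bur-0). The members higher than in Col-0 were PSBQ2 in Bur-0 (0.39 ± 0.09), LHCB1.2 in Sha (0.45 ± 0.16), LHCB2.3 in Sha (0.28 ± 0.11) and PSBY in Tsu-0 (0.28 ± 0.10). With copies summed, both Sha differences turned to -0.33 for LHCB1 and -0.17 for LHCB2.

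**Figure D4:**
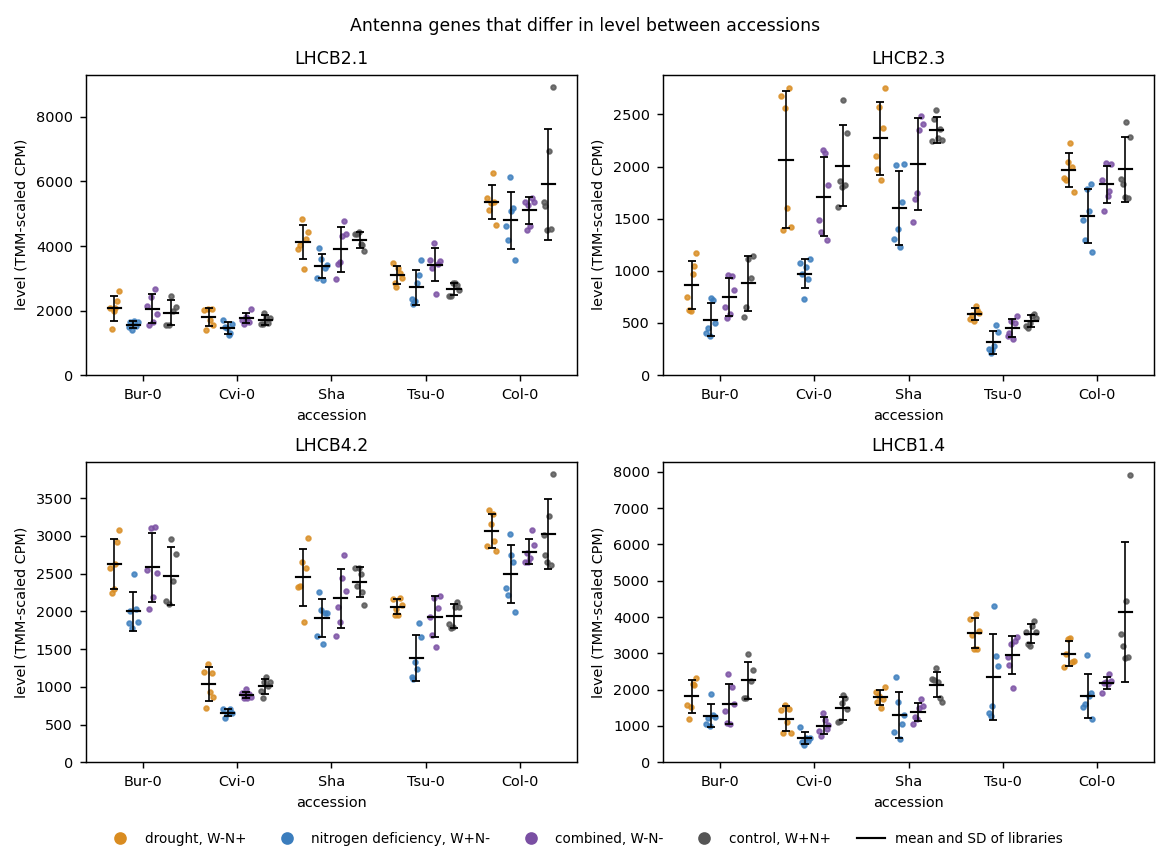
Level in CPM of 4 antenna genes in every library, by accession and treatment, with the mean and SD of each group. The order of accessions differs between genes: LHCB2.1 is highest in Col-0 and LHCB2.3 is lowest in Tsu-0, where its W+N+ median is 524 CPM.

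The wider photosynthetic apparatus was read from lists of other genes, also chosen with earlier results of these data known. Over all genes tested, 31.4% fell and 36.6% rose under nitrogen deficiency, 26.6% fell and 30.6% rose under combined stress, and 13.1% fell and 10.6% rose under drought. Of 6 further nuclear photosystem proteins, 5 fell and 1 rose under nitrogen deficiency: the assembly factors PSB28 and PSB27 fell by 1.08 ± 0.06 and 1.02 ± 0.08, and LHCB7, a further antenna relative, rose by 0.97 ± 0.05. LHCB7 also rose under combined stress (0.69 ± 0.05) and drought (0.24 ± 0.05). Of 14 electron carriers and ATP synthase subunits, 12 fell and 1 rose under nitrogen deficiency (ATPD by 1.05 ± 0.05 and the plastocyanin PETE2 by 0.87 ± 0.08), 11 fell and 1 rose under combined stress, and PGRL1B, of cyclic electron flow, alone rose under drought (0.32 ± 0.04).

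Of 20 plastid-encoded subunits tested, 8 rose, a share near that of all genes, and 0 fell under nitrogen deficiency (median 0.49), 1 rose under drought (median 0.50) and 0 changed under combined stress (median 0.03). Plastid genes took 0.0189% to 0.687% of the counts of a library, in libraries prepared with a kit for polyadenylated RNA, so these values describe the captured fraction.

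Of 17 chlorophyll synthesis genes, 16 fell and 0 rose under nitrogen deficiency: CHLI1, of the magnesium chelatase, fell by 1.16 ± 0.05, GSA1 by 1.01 ± 0.04, HEMA1 by 0.97 ± 0.04 and CHLG, the chlorophyll synthase, by 0.58 ± 0.03. Under combined stress 16 fell as well, CHLI1 by 0.70 ± 0.05 and the light-dependent reductase PORA at -1.60 ± 0.11, and under drought 3 fell (PORA by 0.48 ± 0.10). Of 11 breakdown genes, 7 rose and 3 fell under nitrogen deficiency, 6 rose and 2 fell under combined stress and 5 rose and 1 fell under drought. The pheophytinase PPH rose by 1.097 ± 0.04, 0.77 ± 0.04 and 0.20 ± 0.04, in that order, and the stay-green gene NYE2 by 1.98 ± 0.09 under nitrogen deficiency and 1.302 ± 0.09 under combined stress.

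Of 9 genes for placing and modifying the antenna, 7 fell and 2 rose under nitrogen deficiency, among them LTD, CPSRP43 and CPSRP54 of the import route of LHC proteins, which fell by 0.76 ± 0.05, 0.69 ± 0.05 and 0.64 ± 0.06, and TAP38, the phosphatase that reverses antenna phosphorylation, which rose by 0.46 ± 0.03. Under combined stress 5 fell and 2 rose, and under drought 1 rose. Of 8 LHC-like stress proteins, 6 fell and 2 rose under nitrogen deficiency, 6 fell and 1 rose under combined stress and 3 fell under drought. The early light-induced genes parted: ELIP1 rose by 1.71 ± 0.10 and ELIP2 fell by 1.72 ± 0.12 under nitrogen deficiency, ELIP2 fell by 2.51 ± 0.12 under combined stress, and both fell under drought, by 0.60 ± 0.09 and 1.29 ± 0.12.

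Of 15 known regulators of these genes, 9 fell and 4 rose under nitrogen deficiency, 6 fell and 4 rose under combined stress and 3 rose under drought. GLK1, which encodes an activator of antenna and chlorophyll genes, rose by 0.17 ± 0.04, 0.34 ± 0.04 and 0.22 ± 0.04, in that order. GLK2, its close relative, fell by 0.32 ± 0.05 under nitrogen deficiency. GNC, a GATA factor of chloroplast development, fell by 0.66 ± 0.08 under nitrogen deficiency and 0.28 ± 0.08 under combined stress, while its relative CGA1 rose by 0.57 ± 0.08 and 0.32 ± 0.08. SIG5, a sigma factor for plastid transcription, rose by 1.43 ± 0.07, 1.02 ± 0.07 and 0.40 ± 0.07 under nitrogen deficiency, combined stress and drought, and SIG6 fell by 0.57 ± 0.04 under nitrogen deficiency.

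**Figure D5:**
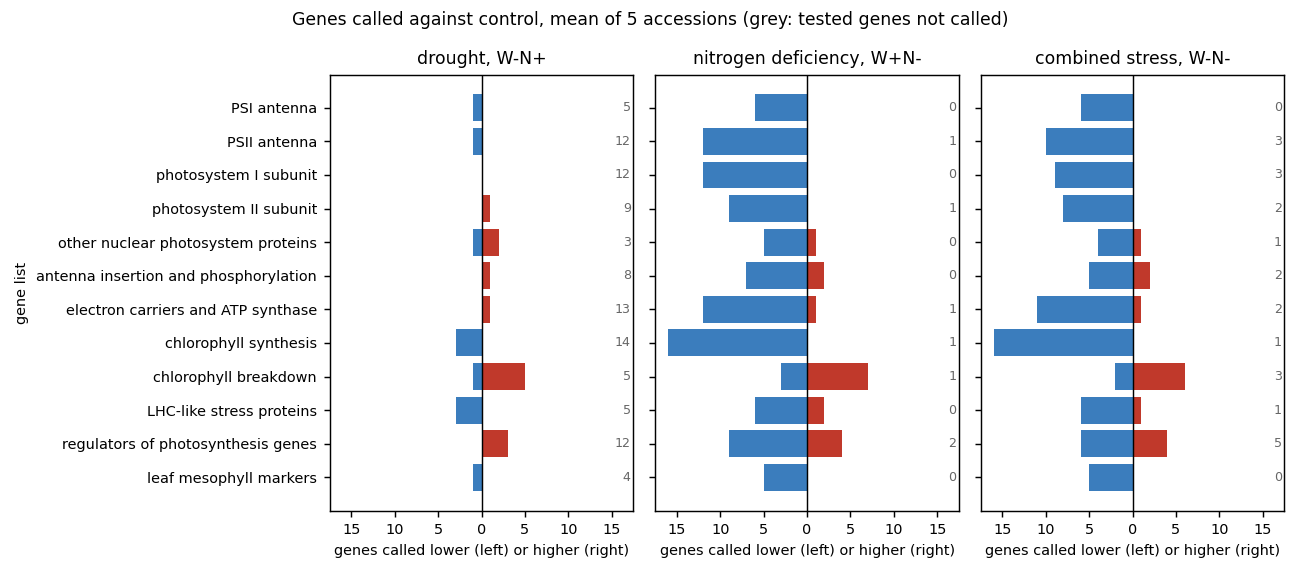
Number of genes called lower (left, blue) and higher (right, red) in each stress against W+N+ by edgeR, averaged over accessions, for the 4 groups of photosystem genes and 8 other lists; grey numbers give tested genes not called. Under nitrogen deficiency 16 of 17 chlorophyll synthesis genes are called lower, as are 12 of 13 photosystem II antenna genes.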

How the data were processed

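RNA of rosettes was sequenced in 20 groups (5 accessions by 4 treatments). The labels' protocols name RNeasy Plant Mini extraction and TruSeq Stranded mRNA libraries. Trimmomatic 0.36 and HISAT2 are named, with no further detail, per the submitters' processing notes. Build, counter and strand setting: not given in the sources used here. Whole-number counts per gene, not normalized, were deposited by the authors.

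After TMM scaling and the filterByExpr filter, 1 quasi-likelihood fit of edgeR 4.0.16 (R 4.3.3) with group and the code in the titles as terms covered all libraries. P-values were adjusted by Benjamini-Hochberg over 20025 genes and called below 0.05. Averaged contrasts weight accessions equally. Values after ± are standard errors of the fit unless called SD or, for volumes, as labelled. For paralogue ratios they are standard errors from the spread of libraries within groups. Triplets of CPM are the lowest, median and highest library. Paralogue ratios (prior count 0.5) were tested with 100000 relabellings. Transcript lengths and sequences came from TAIR10.1, and all 42 genes matched. The statistics were tested on simulated counts. Members and lists were chosen with earlier results of these data known; any member, and up to 4 genes of lowest adjusted p of another list, GLK1, GLK2, GNC and CGA1 could be named. Alternatives were RLE size factors, limma 3.58.1 voom, DESeq2 1.42.0, no filter, no organelle genes, no code, either code alone, a replicate block, leaving out each replicate, single accessions, summed LHCB1 and LHCB2 copies and a prior count of 5. Leaving out 5 far libraries, a covariate for transcript length and the block for paralogue ratios were added after the data were seen.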

Additional observations from a re-analysis of the deposited data

Results flagged for a closer look

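In 80 groups of summed levels, 8 held a library farther from the rest than a Dixon test at the 95% level allows. Chance gives about 1 in 20 for independent groups, but the 80 are 4 sums of the same libraries. All 8 come from the libraries named here, so they cannot be read against that rate. Bur-0 W+N- d was high in all 4 sums, at 6.79% of scaled counts in the photosystem II antenna (others 4.06% to 4.83%), 2.40% in the photosystem I antenna (others 1.77% to 1.96%), 2.58% in photosystem I subunits (others 1.72% to 1.90%) and 3.12% in photosystem II subunits (others 2.17% to 2.45%). Col-0 W+N+ f was high at 19.2% in the photosystem II antenna (others 7.06% to 11.2%) and 4.02% in the photosystem I antenna (others 2.38% to 2.99%). Cvi-0 W+N- a was high at 5.99% in the photosystem II antenna (others 3.83% to 4.53%) and 2.36% in photosystem I subunits (others 1.47% to 1.77%).

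The response differed between accessions, by edgeR's test of equal effects, for PSBY (adjusted p = 0.00716), PSBO2 (0.00739), LHCB2.3 (0.0137) and PSBS (0.0268) under nitrogen deficiency and for LHCB2.1 (0.0316) under combined stress.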

How the results depend on the processing

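Averaged nitrogen deficiency gave 34 to 40 calls in the alternatives tried, the 34 being of 36 features with copies summed. With the replicate block, averaged drought, nitrogen deficiency and combined stress gave 3, 39 and 33 calls, as without it, and no call of a single gene changed. Same-letter libraries deviated together by more than 0.1 in 49 of 177 same-letter pairs of libraries. The correlations ran from -0.45 to 0.39, with a median of -0.007, against -0.003 for other letters. A letter can carry a different code in different groups, so these values cannot decide whether the letters pair libraries. For the paralogue ratios, a block of stress and control libraries sharing accession, letter and code (19 pairs for drought, 19 for nitrogen deficiency and 17 for combined stress, signs of the differences flipped) called 15 of 27 ratios.

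Counts of called members that moved by over 1.5 times follow, without the shares of all genes called in the same fits. Averaged drought gave 1 without the code, with copies summed and in P3ID34; averaged combined stress gave 16 in P3ID33, combined stress against drought 19 in P3ID33, and combined stress against nitrogen deficiency 37 with the length covariate. Non-additivity gave 36 with the length covariate, 8 in P3ID33 and 13 in P3ID34. Drought gave 2 in Col-0 in P3ID33 and 1 in Sha with the length covariate. Nitrogen deficiency gave 9 in Col-0 and 8 in Bur-0 in P3ID34, 18 in Cvi-0 in P3ID33, and in Sha 33 without the far libraries, 38 with the length covariate and 4 in P3ID33. Combined stress gave, without the far libraries, with the length covariate and in P3ID34, 9, 13 and 1 in Col-0 and 10, 16 and 1 in Bur-0. In Cvi-0 it gave 0 without the code, 7 with the length covariate, 0 in P3ID33 and 8 in P3ID34. In Sha it gave 3 without the filter, 2 without the code, 8 without the far libraries, 0 in P3ID33 and 11 in P3ID34, and in Tsu-0 6 in P3ID33. The nitrogen interaction gave 0 without the code, 19 with the length covariate and 1 in P3ID33. The combined interaction gave 0 without the filter, without the code, with copies summed, without the far libraries and in P3ID34, 4 with the length covariate and 5 in P3ID33. Accession differences gave 16 in P3ID34. Against Col-0, Bur-0 gave 13 without the code, 10 without the far libraries and 6 in P3ID34, Cvi-0 gave 15 without the far libraries and 9 in P3ID34, Sha gave 2 with copies summed, 16 in P3ID33 and 3 in P3ID34, and Tsu-0 gave 6 with copies summed, 18 in P3ID33 and 6 in P3ID34. Paralogue ratios gave 10 in P3ID34. A code alone holds 3 libraries of a group (2 in 1 group), and other causes were not tested.

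Leaving out each replicate in turn gave 0 to 2 calls for averaged drought, 39 to 39 for averaged nitrogen deficiency, 27 to 35 for averaged combined stress, 21 to 32 for combined stress against nitrogen deficiency, 25 to 29 for combined stress against drought, 14 to 22 for non-additivity. Within accessions it gave for drought 0 to 0 in Bur-0, 0 to 0 in Cvi-0, 0 to 0 in Sha, 0 to 0 in Tsu-0, 0 to 0 in Col-0. Within accessions it gave for nitrogen deficiency 19 to 24 in Bur-0, 21 to 38 in Cvi-0, 13 to 21 in Sha, 21 to 37 in Tsu-0, 12 to 35 in Col-0. Within accessions it gave for combined stress 4 to 6 in Bur-0, 1 to 4 in Cvi-0, 1 to 9 in Sha, 13 to 17 in Tsu-0, 5 to 24 in Col-0. For the interactions it gave 0 to 0 for drought, 1 to 5 for nitrogen deficiency, 0 to 1 for combined stress, for accession differences 20 to 32, and against Col-0 6 to 21 in Bur-0, 11 to 26 in Cvi-0, 5 to 10 in Sha, 6 to 14 in Tsu-0. For paralogue ratios it gave 15 to 18.

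Of 288 results for single genes and ratios under 5027 alternatives in all, 4684 kept direction and call, 322 lost the call, 12 gained it and 9 turned. The turned values were LHCB4.3 under nitrogen deficiency without the far libraries (0.0149), LHCB2.3 (-0.17) and LHCB1.2 (-0.33) in Sha with copies summed, PSBO1 over PSBO2 under combined stress in P3ID33 (-0.0402), with the replicate block (-0.0114) and leaving out a replicate (-0.0136 without a to 0.0331 without d, negative also without e), and under drought in P3ID34 PSAE1 over PSAE2 (0.0106) and LHCB4.3 over LHCB4.1 (-0.0049).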
